A study of Mus musculus with 20 samples.

Results

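The 9 genes described here are 3 genes of sprouting endothelial tip cells (Esm1, Kcne3 and Tmem255a), the peptide apelin and its receptor (Apln and Aplnr), and the peptide adrenomedullin with the parts of its receptor (Adm, Calcrl, Ramp2 and Ramp3). They were taken by name from 18194 mouse genes that had a probe set of their own on the Affymetrix Mouse Genome 430 2.0 array. The brightest probe set of a gene, by its mean over all grouped arrays, gives its values, and the other probe sets of the same gene serve as a check, which makes 16 probe sets in all. All 9 genes passed the minimum mean signal of 300 used here, as did 13595 genes in total. The genes were chosen by their changes on day 5 and day 20 against control, so those changes are given as a description, with no test.

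The arrays measured total RNA of whole mouse flank tissue in a model named Ad-VEGF-A164, in which an adenoviral vector carries VEGF-A164, a form of the growth factor VEGF-A. The groups were flank tissue of day 0, labelled control (5 arrays, A to E), and flank tissue harvested on day 5 (4 arrays, B to E), day 20 (5 arrays) and day 60 (5 arrays) of the model. One further array had the title of day 5 A but the source name of the control. It was left out of every group. The controls were of day 0 and no empty vector was named, so VEGF-A, vector, injection and time cannot be told apart. Strain, sex, age and dose are not stated in the sources used here. No label says that the arrays of a group came from separate animals, so a p-value measures only how these samples scatter, and that scatter may be technical.

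A growing vessel is led by a tip cell, which extends toward VEGF-A and is followed by stalk cells. Esm1 encodes endocan, a proteoglycan secreted by endothelial cells and widely used to mark tip cells. Kcne3 encodes an accessory subunit of voltage-gated potassium channels, and Tmem255a encodes a membrane protein. Apelin is a secreted peptide, made by tip cells among others, and its receptor Aplnr is a G protein-coupled receptor found on endothelium. Adrenomedullin is a secreted peptide that relaxes vessels and keeps their barrier tight. Its receptor is Calcrl, which becomes an adrenomedullin receptor only when it pairs with an accessory protein, RAMP2 or RAMP3. With RAMP1, the same Calcrl protein binds the neuropeptide CGRP instead.

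The flank tissue gave signal for genes of skin, fat, muscle and endothelium, which its label does not name. On the controls the keratin gene Krt5 averaged 5612 ± 2243 signal units and the fat cell gene Adipoq 33602 ± 16440. The muscle gene Acta1 averaged 120105 ± 19079 and the endothelial cadherin gene Cdh5 2415 ± 677 (all SD, n = 5). The vector's gene was traced by Vegfa, whose probe set averaged 196 ± 156 on the control arrays (SD, n = 5), 6739 ± 2584 on day 5 (SD, n = 4), 9256 ± 2549 on day 20 (SD, n = 5) and 463 ± 354 on day 60 (SD, n = 5). The median signal of an array lay between 406 and 569 after the authors' scaling, which sets arrays to a common brightness. The ratio of the 3′ to the 5′ Actb control probe sets, which rises as RNA breaks down, averaged 7.10 on control arrays, 4.82 on day 5, 4.48 on day 20 and 8.82 on day 60, with the highest values on day 60 A (14.0), day 60 D (10.9) and day 60 B (10.4).

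Promoters of the genes are shown first, so that the letters near the start of the genes with the largest changes stand beside their values. RefSeq (build GRCm38.p6) gave promoters of 300 bases, 250 before and 50 after the transcription start, for 7 of the 9 genes. The 3 tip cell genes had the largest changes on day 5, and their promoters are printed with that of Adm, which had the next largest change on day 5 and is known as a gene induced by low oxygen. Each is read 5′ to 3′ along its gene, and capitals mark, on either strand, the hypoxia response element cores ACGTG and GCGTG and the ETS core GGAAG, the core bound by a family of factors that act in endothelial cells. They lie at chr13:113209409-113209708 on the plus strand (Esm1), at chr7:100178433-100178732 on the plus strand (Kcne3, the second of its promoters in the table), at chrX:38252432-38252731 on the minus strand (Tmem255a) and at chr7:110627407-110627706 on the plus strand (Adm).
Esm1: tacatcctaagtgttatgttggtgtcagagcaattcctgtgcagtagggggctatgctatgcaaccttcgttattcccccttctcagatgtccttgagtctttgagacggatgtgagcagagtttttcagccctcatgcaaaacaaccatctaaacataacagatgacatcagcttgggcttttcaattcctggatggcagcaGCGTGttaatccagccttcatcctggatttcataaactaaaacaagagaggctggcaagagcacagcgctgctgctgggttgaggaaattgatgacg
Kcne3: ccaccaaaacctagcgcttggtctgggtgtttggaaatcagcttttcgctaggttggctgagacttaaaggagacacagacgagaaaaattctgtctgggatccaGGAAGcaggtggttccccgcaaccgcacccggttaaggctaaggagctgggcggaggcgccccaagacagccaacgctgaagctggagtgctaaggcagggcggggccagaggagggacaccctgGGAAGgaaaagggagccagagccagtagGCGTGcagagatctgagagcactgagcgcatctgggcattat
Tmem255a: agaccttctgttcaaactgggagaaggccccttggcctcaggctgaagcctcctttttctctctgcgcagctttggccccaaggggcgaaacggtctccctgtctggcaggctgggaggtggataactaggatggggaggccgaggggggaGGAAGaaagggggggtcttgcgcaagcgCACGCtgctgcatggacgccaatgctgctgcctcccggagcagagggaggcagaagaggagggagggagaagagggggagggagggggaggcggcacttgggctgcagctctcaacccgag
Adm: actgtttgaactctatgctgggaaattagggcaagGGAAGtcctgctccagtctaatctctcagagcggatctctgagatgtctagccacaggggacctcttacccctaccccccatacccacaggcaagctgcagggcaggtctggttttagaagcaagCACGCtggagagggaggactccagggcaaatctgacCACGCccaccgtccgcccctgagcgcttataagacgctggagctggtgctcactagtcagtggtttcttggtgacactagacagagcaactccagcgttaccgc
Each of the 3 printed tip cell promoters held 1 GCGTG, and 2 of them held GGAAG. Esm1 held 1 GCGTG and no GGAAG, and shorter or other forms of the ETS core were not searched. The printed Kcne3 promoter held 1 GCGTG and 2 GGAAG, and that of Tmem255a held 1 of each. The first Kcne3 promoter, which is not printed, held no GCGTG, 1 ACGTG and 2 GGAAG. Adm held GCGTG on the minus strand at -90 and at -54 from the start and 1 GGAAG.

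Over all 7 genes with a promoter, GCGTG was found in 6. By promoter it was in 6 of 8, against 32.4% of the 32851 promoters of the same length. GGAAG was found in 6 of 7 genes and in 7 of 8 promoters, against 71.4% of all promoters. ACGTG was found in 1 of the 8 promoters, the first of Kcne3, against 19.6% of all. Of 3 further motifs searched on both strands, the GATA site AGATAA (11.2% of all promoters) and the TATA box TATAAA (13.6%) had no match in any of the 8. The Sp1 box GGGCGG (35.7%) had a match in 5 of the 7 genes and 5 of the 8 promoters. GCGTG and the other motifs can overlap, and a match describes letters, not binding.

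The genes differed in how far and how long they stood above control. The 3 tip cell genes were 21.4 to 41.4 times as high on day 5 as in the controls on the log2(signal + 100) scale, the receptor genes Aplnr, Calcrl, Ramp2 and Ramp3 2.31 to 3.12 times, Adm 3.62 times and Apln 1.59 times. In 8 of the 9 genes every day 5 array lay above every control array, as did 14.5% of all genes tested, and the same count of 8 held on day 20, against 12% of all genes. Apln was the exception both times. These counts use the brightest probe set of each gene and follow from how the genes were chosen. Day 5 and day 20 share their control arrays. On day 60 none was called different from control by limma's test at an adjusted p of 0.05, and 7 were lower than on day 20 and 8 lower than on day 5.

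**Figure D1:**
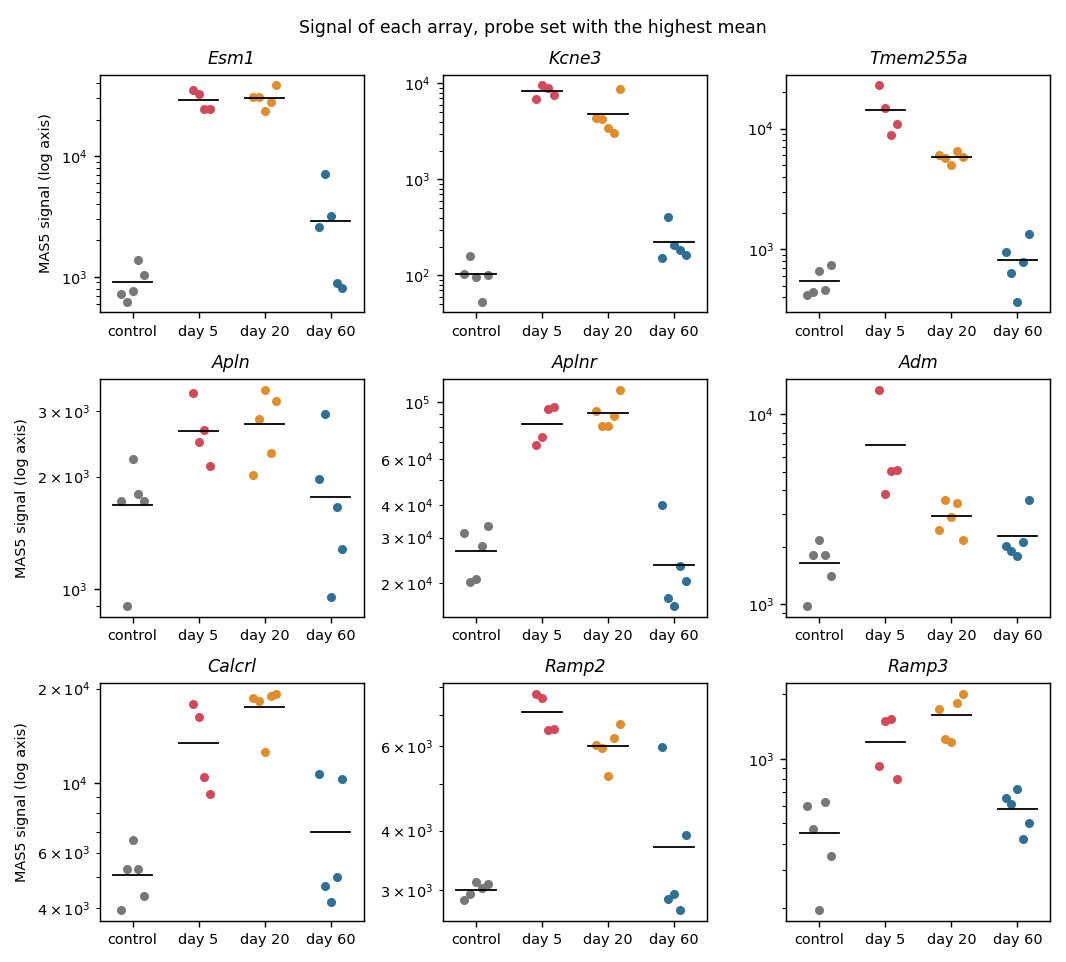
MAS5 signal (log axis, in the units of the deposited table) of each of the 9 genes on every control, day 5, day 20 and day 60 array, 1 point an array, with arrays A to E from left to right and a line at the group mean. Esm1 stayed at 23673 or above on every day 5 and day 20 array, Tmem255a and Adm were lower on day 20 than on day 5, and Apln overlapped between all groups.

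Esm1 (probe set 1449280_at) was measured at 717, 624, 765, 1371 and 1042 on control arrays A to E. On day 5 it stood at 35093, 32811, 24276 and 24559 on arrays B to E. On day 20 arrays A to E it stood at 30492, 31008, 23673, 27752 and 38427. The day 5 and day 20 ranges overlapped each other, and both lay far above the controls. On day 60 arrays A to E it read 2601, 7092, 3206, 896 and 812. Arrays D and E of day 60 were within the control range and A, B and C were above it, and relative to the mean the day 60 values were the most scattered of the groups, with a coefficient of variation of 87.5%. The log2 change against control was 4.90 ± 0.42 (SE) on day 5 and 4.95 ± 0.40 on day 20.

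Between day 20 and day 5 Esm1 differed by 0.05 ± 0.42 (adjusted p = 0.961, limma), with an interval of 2 SE from -0.79 to 0.90. On day 60 it fell by 3.73 ± 0.40 relative to day 20 (adjusted p = 2.01e-06, limma) and fell by 3.68 ± 0.42 relative to day 5 (adjusted p = 5.33e-06). Against control the day 60 arrays were higher by 1.22 ± 0.40, which did not pass over all genes (limma, adjusted p = 0.130). In the order of its levels control came before day 60, then day 5 and day 20, and the test separated neither control from day 60 nor day 5 from day 20.

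Kcne3 (1418499_a_at) was dim in the controls, below the minimum of 300 on every array, at 103, 161, 95.2, 53.4 and 102 on arrays A to E. On day 5 arrays B to E it read 6899.6, 9545, 9032 and 7512. On day 20 arrays A to E it read 4370.2, 4232, 3439, 3059 and 8827. Array E of day 20 lay inside the day 5 range and the other 4 lay below it. On day 60 arrays A to E the signals were 153, 410.3, 207, 184 and 163. All 5 were above 4 of the control arrays, and A lay below control B.

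The log2 change of Kcne3 against control was 5.37 ± 0.26 on day 5 and 4.51 ± 0.24 on day 20. Its controls were dim, so the size depends on the amount added before the log: it was 6.38 with 1 added and 3.85 with 500 added. With 500 added Esm1, at 4.41, had the larger change. On day 60 Kcne3 fell by 3.86 ± 0.24 relative to day 20 (adjusted p = 3.93e-09, limma) and fell by 4.73 ± 0.26 relative to day 5 (adjusted p = 4.88e-10). Day 20 was lower than day 5 by a log2 change of -0.87 ± 0.26 that just missed the threshold (adjusted p = 0.0553, limma). Without array E of day 20 it was -1.11 (adjusted p = 0.00623), and without array B of day 60, which is in neither group but in the shared estimate of the spread, it passed as well (adjusted p = 0.030). Against control the day 60 difference was 0.64 ± 0.24 (adjusted p = 0.188).

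Tmem255a (1436948_a_at) was at 419, 446, 664, 458 and 745 on control arrays A to E. On day 5 arrays B to E it read 22819, 14858, 8928 and 10844. On day 20 arrays A to E it read 6009.6, 5723, 4965, 6477 and 5779. Every day 20 array was below every day 5 array and above every control array. On day 60 arrays A to E it read 949, 639, 369, 779.8 and 1332, which overlapped the controls. The log2 change against control was 4.42 ± 0.27 on day 5 and 3.21 ± 0.26 on day 20.

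At the main setting Tmem255a was the only tip cell gene that passed the test between the first time points. On day 20 it fell by 1.21 ± 0.27 relative to day 5 (adjusted p = 0.0136, limma). Array B of day 5 held its highest value, and without it the change was -0.96 (adjusted p = 0.0573). On day 60 it fell by 2.78 ± 0.26 relative to day 20 (adjusted p = 3.88e-07) and fell by 3.99 ± 0.27 relative to day 5 (adjusted p = 1.39e-08). Against control day 60 differed by 0.43 ± 0.26 (adjusted p = 0.427). Its levels stood in the order control, day 60, day 20 and day 5, and the test did not separate the first of these pairs.

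Apln (1451038_at), the ligand, had the smallest changes on day 5 and day 20. It was at 1717, 900.5, 2228, 1797 and 1724 on control arrays A to E. Day 5 arrays B to E read 3354, 2469.6, 2664 and 2139, and day 20 arrays A to E read 2025, 2846, 3423, 2316 and 3189. Day 60 arrays A to E read 1966, 2949, 950.1, 1655 and 1275. Control C was above day 5 E and day 20 A, and day 60 B was above 3 of the day 5 arrays. Compared with control, the log2 change was 0.67 ± 0.27 on day 5 and 0.72 ± 0.25 on day 20.

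None of the 4 tested comparisons of Apln passed over all genes. Day 60 was lower than day 20 by a log2 change of -0.69 ± 0.25 (adjusted p = 0.0557, limma) and lower than day 5 by -0.65 ± 0.27 (adjusted p = 0.0862). Both were called in other settings. Without array B of day 60 the changes were -0.89 (adjusted p = 0.0108) and -0.85 (adjusted p = 0.017). The first also passed without control B (adjusted p = 0.0316) and without day 20 A (-0.79, adjusted p = 0.0425). On all arrays it passed under quantile normalization (adjusted p = 0.0403), 75th percentile centring (0.0348), array weights (0.0266) and a minimum mean signal of 1000 (0.0489), and with the Actb ratio as a covariate (-1.04, adjusted p = 0.00847). The second passed with array weights (adjusted p = 0.0429) and with the Actb ratio (-0.96, adjusted p = 0.0151). Day 20 and day 5 differed by 0.05 ± 0.27 (adjusted p = 0.949), and day 60 and control by 0.02 ± 0.25 (adjusted p = 0.976, interval -0.48 to 0.53).

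Aplnr (1438651_a_at), the apelin receptor gene, was at 31259.6, 20234, 20714, 27949 and 33239.5 on control arrays A to E. Day 5 arrays B to E read 68055, 73315, 93546 and 95375. Day 20 arrays A to E read 92257, 80786, 80529.6, 87980.1 and 111620. The day 5 and day 20 ranges overlapped and both lay above every control. Day 60 arrays A to E read 40232, 17616, 16378, 23404 and 20386, of which A was above every control array and B and C were below them. Set against control, the log2 change was 1.64 ± 0.22 on day 5 and 1.78 ± 0.21 on day 20.

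On day 60 Aplnr fell by 2.01 ± 0.21 relative to day 20 (adjusted p = 1.35e-06, limma) and fell by 1.87 ± 0.22 relative to day 5 (adjusted p = 6.80e-06). Day 60 then differed from control by -0.23 ± 0.21 (adjusted p = 0.617), and Aplnr was the 1 gene of the 9 with a day 60 mean below the control mean. Day 20 and day 5 differed by 0.14 ± 0.22 (adjusted p = 0.779). Every day 5 and day 20 array was above every control array for Aplnr, and this was not so for Apln.

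Adm (1447839_x_at), the adrenomedullin gene, peaked on day 5. Control arrays A to E were at 981, 1825, 2189, 1825 and 1414, and day 5 arrays B to E at 13520.5, 3827, 5017 and 5071. Array B of day 5 was far above every other array. Day 20 arrays A to E read 2460.3, 3545, 2893, 3425 and 2189.6. All day 20 arrays were below all day 5 arrays, and day 20 E was above control C by less than 1 signal unit. Day 60 arrays A to E read 2032, 1903, 1796, 2138 and 3537, with E above every control. Relative to control its log2 change was 1.86 ± 0.30 on day 5 and 0.80 ± 0.28 on day 20.

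On day 60 Adm fell by 1.41 ± 0.30 relative to day 5 (adjusted p = 0.00179, limma), and day 60 and day 20 differed by -0.35 ± 0.28 (adjusted p = 0.400). On day 20 it fell by 1.05 ± 0.30 relative to day 5 (adjusted p = 0.0431). Without array B of day 5 that change was -0.67 (adjusted p = 0.132), and leaving out any 1 of 11 arrays ended the call (control D and E, day 5 B, D and E, day 20 A, C, D and E, day 60 A and D). Day 60 and control differed by 0.45 ± 0.28 (adjusted p = 0.444).

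Calcrl (1425814_a_at), the receptor to which the RAMP proteins bind, was at 3939, 5315, 6586, 5334 and 4352 on control arrays A to E. Day 5 arrays B to E read 17898, 16237, 10442 and 9198. Day 20 arrays A to E read 18693, 18295, 12545, 18919 and 19270.1. Both groups were above the controls and overlapped each other. Day 60 arrays A to E read 10719.6, 4711, 4184, 5022 and 10308. Arrays A and E of day 60 were above the control range and overlapped day 5, and B, C and D were within the control range. Its log2 change against control came to 1.35 ± 0.27 on day 5 and 1.77 ± 0.26 on day 20.

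Calcrl fell on day 60 by 1.42 ± 0.26 relative to day 20 (adjusted p = 0.000554, limma) and by 0.996 ± 0.27 relative to day 5 (adjusted p = 0.0114). Without array B of day 5 the fall relative to day 5 was no longer called (-0.84, adjusted p = 0.0522). Day 20 and day 5 differed by 0.42 ± 0.27 (adjusted p = 0.423, interval -0.12 to 0.96), and day 60 and control by 0.35 ± 0.26 (adjusted p = 0.520).

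Ramp2 (1418187_at) had the tightest controls of the 9 genes, at 2855, 2943, 3115, 3035 and 3085 on arrays A to E. Day 5 arrays B to E read 7738, 7566, 6493 and 6539.5, and day 20 arrays A to E read 6048, 5959, 5216, 6242 and 6671. Day 20 E lay within the day 5 range. Day 60 arrays A to E read 5994, 2876, 2951, 2727 and 3914. Array A of day 60 was within the day 20 range, and E was above the controls. Against control the log2 change was 1.21 ± 0.17 on day 5 and 0.98 ± 0.16 on day 20.

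On day 60 Ramp2 fell by 0.75 ± 0.16 relative to day 20 (adjusted p = 0.00221, limma) and fell by 0.98 ± 0.17 relative to day 5 (adjusted p = 0.000354). Day 20 and day 5 differed by -0.23 ± 0.17 (adjusted p = 0.493), and day 60 and control by 0.22 ± 0.16 (adjusted p = 0.510).

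Ramp3 (1420401_a_at) was at 601, 470.2, 196, 624 and 349.9 on control arrays A to E. Day 5 arrays B to E read 927, 1497, 1536 and 806, and day 20 arrays A to E read 1700.3, 1234, 1198, 1827 and 2015. Both groups were above the controls, and they overlapped each other. Day 60 arrays A to E read 653, 616, 722, 420 and 499, all below every day 5 and day 20 array. The log2 change relative to control was 1.26 ± 0.25 on day 5 and 1.67 ± 0.24 on day 20. On day 60 Ramp3 fell by 1.304 ± 0.24 relative to day 20 (adjusted p = 0.000641, limma) and fell by 0.89 ± 0.25 relative to day 5 (adjusted p = 0.0151). The second of these was not called without array C of day 5 (-0.77, adjusted p = 0.0599) or array D of day 5 (-0.76, adjusted p = 0.0546). Day 20 and day 5 differed by 0.41 ± 0.25 (adjusted p = 0.393), and day 60 and control by 0.37 ± 0.24 (adjusted p = 0.468).

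Counted over the 9 genes, 2 fell on day 20 relative to day 5 (Tmem255a and Adm) and none rose, where 2.25% of all genes tested fell and 3.05% rose. On day 60, 7 fell relative to day 20 and none rose, where 11.2% of all genes fell and 11% rose. Relative to day 5, 8 fell and none rose, where 12.2% of all genes fell and 12.2% rose. On day 60 against control none rose and none fell, where 0.368% of all genes rose and 0.765% fell. Of the 9, Esm1 and Kcne3 had an unadjusted p under 0.05 in that comparison, both higher on day 60, and no rise had one in the other 3 comparisons. The falls on day 60 are tests of genes known beforehand to have been high on day 5 and day 20, and a return is not independent of that choice. Kcne3 also passed the minimum signal only through those days.

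**Figure D2:**
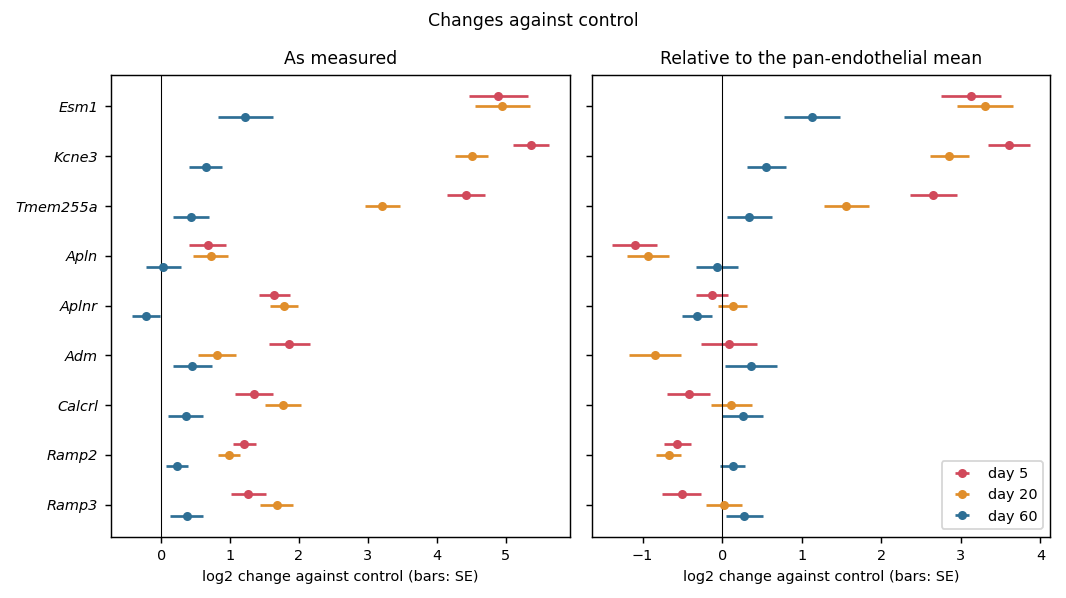
Log2 change against control of the 9 genes on day 5, day 20 and day 60, with bars of 1 SE, as measured (left) and after the mean of 27 pan-endothelial genes was subtracted from each array (right). As measured all day 5 and day 20 changes lie above 0; relative to the endothelial genes those of Esm1, Kcne3 and Tmem255a stay between 1.56 and 3.60 and that of Apln is -1.10 on day 5.

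Because the tissue was sampled whole, more endothelial cells and more RNA per endothelial cell cannot be told apart. A list of 27 pan-endothelial genes, among them the cadherin Cdh5 and the sialomucin Emcn, had a mean log2 level of 10.5 on control arrays (10.3 to 10.7), 12.3 on day 5 (12.3 to 12.4), 12.2 on day 20 (11.9 to 12.5) and 10.6 on day 60 (10.3 to 11.0). Their summed signal ran between 51847 and 62958 on control arrays, 184651 and 206534 on day 5, 150270 and 232039 on day 20 and 49515 and 84440 on day 60. Of the 27, 26 rose on day 5, with a median log2 change of 1.72, and 26 rose on day 20, with a median of 1.66, where 16.8% of all genes rose on day 5 and 15.6% on day 20. The median of all genes tested was -0.07 on day 5 and -0.06 on day 20. Icam2 had the highest change of the list on day 5, at 3.19, and Emcn on day 20, at 2.84. Esm1, Kcne3 and Tmem255a lay above these on both days.

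Each gene was also read relative to the mean of the 27 on the same array, which takes 1.77 from every day 5 change and 1.65 from every day 20 change. The median of all genes tested is then -1.84 on day 5 and -1.70 on day 20. Against control, Esm1 was then higher by 3.13 ± 0.37 on day 5 and by 3.30 ± 0.35 on day 20. Kcne3 was higher by 3.60 ± 0.26 on day 5 and by 2.86 ± 0.24 on day 20, and Tmem255a by 2.65 ± 0.30 and by 1.56 ± 0.28. Apln was lower, at -1.10 ± 0.28 on day 5 and -0.93 ± 0.26 on day 20, and so was Ramp2, at -0.56 ± 0.17 on day 5 and -0.67 ± 0.16 on day 20. Aplnr was within 1 SE of the endothelial mean on both days, at -0.13 ± 0.20 on day 5 and 0.13 ± 0.18 on day 20.

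The other adrenomedullin genes kept less even a distance to the endothelial mean. Calcrl was at -0.42 ± 0.27 on day 5 and 0.12 ± 0.26 on day 20, Ramp3 at -0.51 ± 0.25 on day 5 and 0.02 ± 0.23 on day 20, and Adm at 0.09 ± 0.35 on day 5 and -0.84 ± 0.33 on day 20. On this scaling the sign turned for Apln and Ramp2 on both days, for Aplnr, Calcrl and Ramp3 on day 5 and for Adm on day 20. The endothelial genes themselves spread from 0.57 to 3.19 on day 5 and from 0.65 to 2.84 on day 20 before any subtraction, and the 6 genes outside the tip cell group had changes within the range of the list on both days, as measured.

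On day 60 relative to day 20 and on the same scaling, Esm1 fell by 2.17 ± 0.35 (adjusted p = 5.81e-06, limma), and Kcne3 and Tmem255a fell by 2.30 and fell by 1.22. Aplnr fell by 0.45 ± 0.18 (adjusted p = 0.0257). This scaling lifts every gene on day 60: the median of all genes tested is 1.59 relative to day 20, 95.4% of them are called higher and 0.625% lower. The changes of Ramp2 (0.81 ± 0.16), Apln (0.87 ± 0.26) and Adm (1.20 ± 0.33) were called higher too, and all 3 lay below that median. Relative to day 5, 95.4% of all genes are called higher and 0.478% lower. On day 20 relative to day 5 Tmem255a alone of the 9 was called on this scaling (-1.09 ± 0.30, adjusted p = 0.0456), where 2.71% of all genes are called higher and 0.382% lower.

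**Figure D3:**
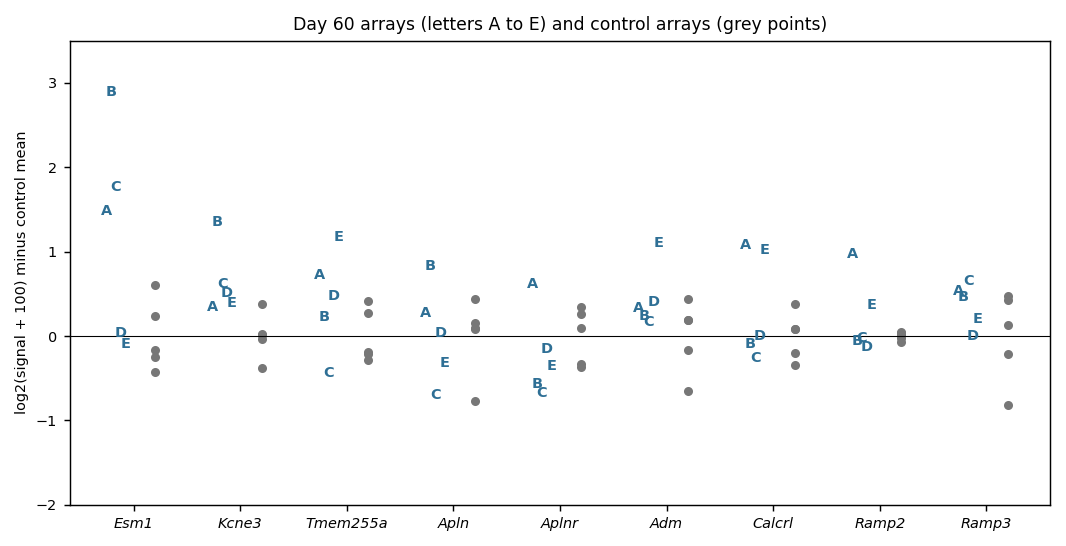
Log2(signal + 100) minus the control mean of the same gene, for the 5 day 60 arrays (blue letters A to E) and the 5 control arrays (grey points). Array B of day 60 is the highest for Esm1, Kcne3 and Apln, array A for Aplnr, Calcrl and Ramp2, and array E for Tmem255a and Adm.

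The day 60 arrays did not stand in one order over the 9 genes. Array B had the highest Esm1 (7092), Kcne3 (410.3) and Apln (2949) of day 60 and also the highest Vegfa, at 1076 against 219 to 449 on the other 4. Array A had the highest Aplnr, Calcrl and Ramp2 of day 60 and the highest endothelial mean, at 11.0. It also had the highest Actb 3′ to 5′ ratio. Array E had the highest Tmem255a (1332) and Adm (3537). Without arrays A, B and D of day 60, an alternative added after these ratios were seen, 8 of the 9 genes were called lower on day 60 than on day 20, with Apln added at -1.23 (adjusted p = 0.00772, limma). Relative to day 5, 6 were then called, with Apln added at -1.18 (adjusted p = 0.0103) and the calls of Adm, Calcrl and Ramp3 lost (adjusted p = 0.0525, 0.0549 and 0.115).

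**Figure D4:**
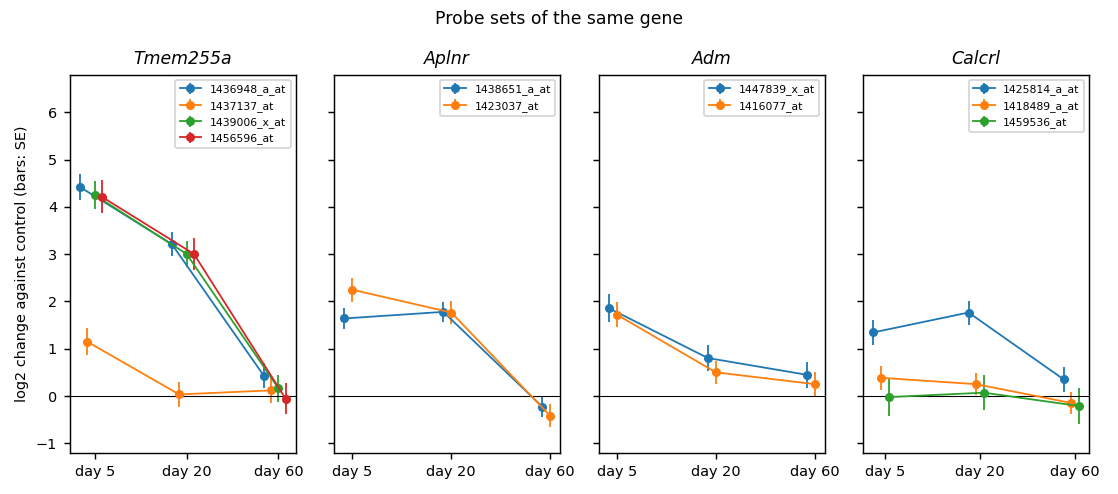
Log2 change against control on day 5, day 20 and day 60, with bars of 1 SE, for every probe set of the 4 genes that have several. The probe sets of Aplnr and of Adm follow each other, 3 of the 4 of Tmem255a do, and the other probe sets of Calcrl stay near 0.

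Where a gene had several probe sets, they mostly gave the same course. For Tmem255a, 1439006_x_at showed 4.25 on day 5 and 3.01 on day 20 against control, and 1456596_at 4.21 and 3.004. The remaining probe set, 1437137_at, was near background (mean signal 95.1), at 1.15 and 0.03. For Aplnr, 1423037_at showed 2.25 on day 5 and 1.77 on day 20, so on this probe set day 20 was lower than day 5 by a change of -0.48 (adjusted p = 0.324 over all probe sets). For Adm, 1416077_at showed 1.72 on day 5 and 0.50 on day 20, and on day 20 it fell by 1.22 relative to day 5 (adjusted p = 0.00947 over all probe sets, limma). Its day 20 arrays overlapped the controls, unlike those of the brightest Adm probe set.

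Calcrl was the gene whose probe sets disagreed. Beside the 1.35 and 1.77 of its brightest probe set, 1418489_a_at (mean signal 341) showed 0.39 on day 5 and 0.25 on day 20, and its day 60 comparisons were not called (adjusted p = 0.259 against day 20 and 0.135 against day 5). Probe set 1459536_at (mean signal 132) showed -0.02 and 0.07. Both were dim, and which transcripts they read was not tested. Esm1, Kcne3, Apln, Ramp2 and Ramp3 had 1 probe set each.

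**Figure D5:**
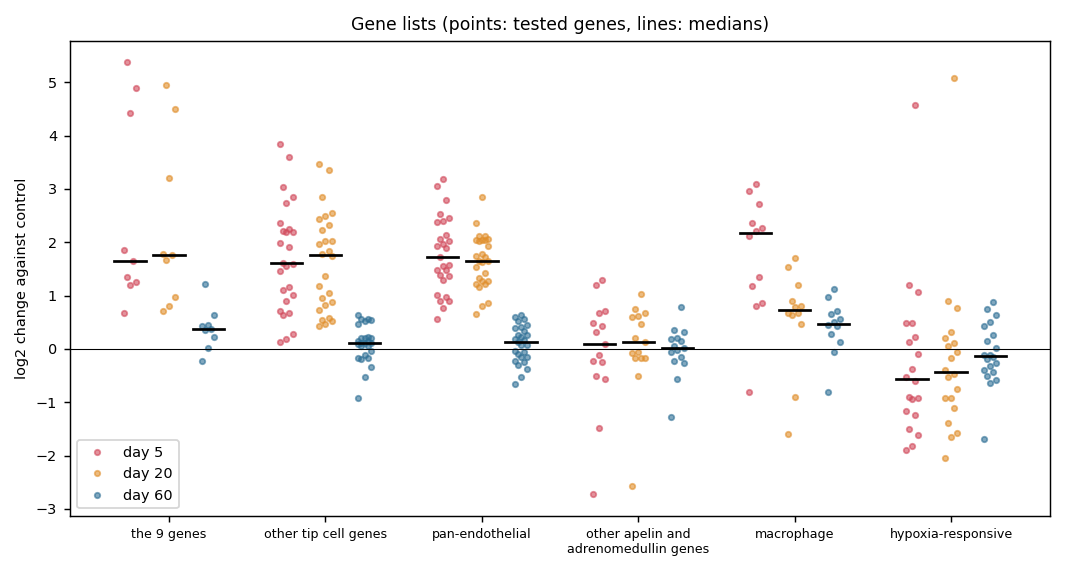
Log2 change against control on day 5, day 20 and day 60 of the 9 genes and of 5 gene lists, 1 point a gene and a line at each median. The other tip cell genes (median 1.60 on day 5) and the pan-endothelial genes (1.72) lie mostly above 0, the hypoxia-responsive genes have a median below 0 on day 5, and the macrophage genes have their highest median on day 5; the hypoxia point near 5 is Vegfa.

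Other genes known from tip cells moved with the 9. Of 26 on the list, 23 rose on day 5 (median 1.60), and 22 rose on day 20 (median 1.76), against the 16.8% and 15.6% of all genes given above. The pan-endothelial genes above rose in no smaller a share, with medians close to these. The rise was thus not particular to tip cell genes. Igfbp3, which binds insulin-like growth factors, rose most on day 5, by 3.84 ± 0.26. The basement membrane gene Nid2 rose by 3.60 ± 0.20 on day 5 and by 3.47 ± 0.19 on day 20, and the collagen gene Col4a2 by 3.35 ± 0.19 on day 20. Dll4, the Notch ligand of tip cells, rose by 0.67 ± 0.19 on day 5 and by 0.52 ± 0.18 on day 20. Both lay below the 1.77 and 1.65 by which the pan-endothelial mean rose on these days.

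On day 20 relative to day 5, Igfbp3 was the 1 gene of this list that passed the test, with a log2 change of -1.3003 ± 0.26 (adjusted p = 0.00646, limma), next to the -1.21 of Tmem255a. Of all genes tested, 2.25% fell and 3.05% rose in that comparison, so 1 call of 26 is near the share of all genes. On day 60, 23 of the 26 fell relative to day 20 and 21 relative to day 5, led by Nid2 (-3.36 and -3.49). Of all genes, 11.2% and 12.2% fell in these comparisons.

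The remaining genes of the apelin and adrenomedullin pathways moved far less evenly. Of 23 named, 20 had a probe set and 15 were tested. On day 5, 5 rose and 2 fell (median 0.10), where 16.8% of all genes rose and 17.5% fell. The share that fell was thus not above that of all genes. Ramp1, the accessory protein that gives Calcrl its CGRP binding, fell by 1.48 ± 0.25 (adjusted p = 0.000149, limma), with means of 1184 on day 5 and 3553 in the controls, while Ramp2 and Ramp3 were at 1.21 and 1.26. Mme, the membrane protease neprilysin, which cuts vasoactive peptides, fell by 2.72 ± 0.26. Arrb2, an arrestin that turns off G protein-coupled receptors, rose by 1.29 ± 0.22, and Ece1, the enzyme that matures endothelin, by 1.19 ± 0.24.

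On day 20, 5 rose and 1 fell, where 15.6% of all genes rose and 14.5% fell. Ramp1 stood at -0.17 of control and had risen by 1.31 ± 0.25 relative to day 5 (adjusted p = 0.00428), so the low Ramp1 was seen on day 5 and not on day 20. Mme fell by 2.58 ± 0.24 on day 20 and fell by 1.28 ± 0.24 on day 60 (adjusted p = 0.0176), the 1 call of the list on day 60 against control. In that comparison 0.765% of all genes fell. Ece1 rose by 1.03 ± 0.23 and the G protein gene Gnai2 by 0.75 ± 0.13. Pam, the enzyme that amidates adrenomedullin, had a change of 0.10 on day 5 and 0.20 on day 20. Ackr3, a scavenger receptor that binds adrenomedullin, had -0.51 and -0.06. None of these 4 values passed the test.

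On day 60 relative to day 20, Mme rose by 1.297 ± 0.24 and 3 genes fell, Gnas by 0.81 ± 0.16, Gpr182 by 0.74 ± 0.18 and Gnai2 by 0.54 ± 0.13. Of all genes, 11% rose and 11.2% fell in this comparison. Relative to day 5, 3 rose (Mme by 1.44, Ramp1 by 0.91 and Ackr3 by 0.86) and 4 fell, led by Arrb2 (-1.15), where 12.2% of all genes rose and 12.2% fell.

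Of 12 relatives and channel partners of Kcne3 and Tmem255a, 8 had a probe set and 4 were tested. Kcnq1, a potassium channel with which KCNE3 is known to assemble, averaged 833 on day 5 and 163 in the controls and rose by 1.84 ± 0.34 (adjusted p = 0.000397, limma). Its control and day 60 means were under the minimum of 300, so it entered the test through day 5 and day 20, where it was high, and these changes lean on that. It rose by 1.17 ± 0.32 on day 20, and on day 60 it fell by 1.04 ± 0.32 relative to day 20 and fell by 1.71 ± 0.34 relative to day 5. Kcne4, another accessory subunit, rose by 1.28 ± 0.19 on day 20, and it was then also higher than on day 5, by 0.87 ± 0.20 (adjusted p = 0.0129).

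Apln and Adm are both known as genes induced by low oxygen, so a list of other hypoxia-responsive genes stands beside them. A part of low oxygen in the changes of Apln and Adm was not tested. Of 20 tested, 3 rose on day 5 and 10 fell (median -0.56), where 16.8% of all genes rose and 17.5% fell. With Vegfa counted among the 3, the share that rose was near that of all genes. On day 20, 2 rose and 7 fell, where 15.6% of all genes rose and 14.5% fell. Adipocyte genes, 6 of 8 lower on day 5, and skeletal muscle genes, 4 of 10 lower on day 5, fell as well, and their part in these falls was not tested. The mitophagy gene Bnip3 fell by 1.90 ± 0.28 on day 5, and the glycolysis gene Pfkfb3 by 1.82 ± 0.31. The collagen prolyl hydroxylase gene P4ha1 rose by 1.20 ± 0.31 and Ddit4 by 1.06 ± 0.29. The third that rose was Vegfa itself, the gene of the vector, which was also 1 of the 2 that rose on day 20.

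Adm had Cd68, a macrophage gene, among the 3 genes closest to its course, so the macrophage list stands beside it. Of 12 tested, 9 rose and 1 fell on day 5 (median 2.17), where 16.8% of all genes rose and 17.5% fell, and 5 rose and 2 fell on day 20 (median 0.73), where 15.6% rose and 14.5% fell. On day 20 relative to day 5, 4 fell, where 2.25% of all genes did. Cd163 fell by 2.40 ± 0.53, Msr1 fell by 2.31 ± 0.38 and Cd68 fell by 1.55 ± 0.33. The list was not of 1 course: Cd14 fell by 0.82 ± 0.27 on day 5, and Cd163, at 0.81 ± 0.53 on day 5, was not called there, fell by 1.59 ± 0.50 on day 20 and was higher on day 60 than on day 20 by 2.03 ± 0.50.

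The summed signal of the 13 macrophage genes with a probe set ran between 50552 and 112297 on control arrays, 205951 and 273662 on day 5, 88081 and 194135 on day 20 and 43022 and 232803 on day 60. Their part in the course of Adm was not tested.

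For each gene the 3 others of the 13595 with the closest course were ranked by Pearson's r of log2(signal + 100) over the 19 grouped arrays. These values are descriptions, and they share the large differences between the groups. Esm1 was closest to Mcam (r = 0.983), Itga1 (0.982) and Ctla2a (0.980). Kcne3 was closest to Fam167b (0.988), Cd93 (0.986) and Gimap4 (0.981), and Tmem255a to Igfbp3 (0.975), Nid2 (0.967) and Gpr65 (0.966). Apln had the loosest neighbours, Hif1a (0.864), Rgs16 (0.862) and Cemip2 (0.859). Aplnr was closest to Ets1 (0.971), Apbb2 (0.968) and Cdh5 (0.956).

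Adm was closest to Snx2 (0.939), Slc11a1 (0.925) and the macrophage gene Cd68 (0.924). Calcrl was closest to Elk3 (0.956), Prex2 (0.950) and Crk (0.950), and Ramp2 to Hhex (0.964), Elk3 (0.957) and Gbp7 (0.953), so Elk3 was near both. Ramp3 was closest to Serpinb6b (0.924), Plpp1 (0.915) and Tmtc2 (0.915). After the group means were taken out, the highest r among the 9 genes was that of Calcrl with Ramp2 (0.819), and Calcrl with Tmem255a had 0.770. On day 60, arrays A and E were the highest for both Calcrl and Ramp2.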

How the data were processed

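Flank tissue RNA was hybridised to 20 Affymetrix Mouse Genome 430 2.0 arrays. The series table holds intensity as deposited by the authors, a linear MAS5 signal for each probe set. It was made with MAS 5.0 in GCOS 1.3 and a scaling factor of 1500, per the labels' protocols. No further normalization was applied. MAS5 detection calls are not used here. Scaling to a common mean makes each signal relative to its array, and the number of arrays limits the precision.

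Groups came from source names and titles, and 19 arrays had a group. Of 45101 probe sets, 34958 had 1 gene symbol in the platform annotation and were named, with symbols updated through gene identifiers, of which 34754 matched. Each gene took the probe set with the highest mean signal. Log2(signal + 100) was fitted over all 19 arrays with limma 3.58.1 (lmFit and eBayes with a trend, R 4.3.3), on 13595 genes with a mean of at least 300. The p-values were adjusted by Benjamini-Hochberg over all of them, with a threshold of 0.05. Fold changes understate those of low genes. The script was tested on simulated data.

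The genes and lists were chosen with earlier results of these data known. Other genes named are the 2 largest rises and falls among called genes of a list, the 3 closest by correlation, Vegfa, and a few list genes with a known role (Dll4, Pam, Ackr3, Cd68, Cd14, Kcnq1, Kcne4 and all calls of the pathway list on day 60), chosen after their values were seen. Arrays were not treated as paired by letter. Over 27 pairs of same-letter arrays, 11 correlated above 0.1, with a range from -0.27 to 0.35 and a median of 0.02. Pairs of different letters were not set beside them, so whether the letters pair the samples was not settled. Promoters are from RefSeq.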

Additional observations from a re-analysis of the deposited data

Results flagged for a closer look

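The 5 values below lay further from their own group than Dixon's test allows, on the linear signal, in 36 groups of values checked. Chance gives about 1 in 20 for normally spread values in separate groups, and these groups share arrays. The test was not run on the log scale. The 5 values were Kcne3 on day 20 E (8827), Kcne3 on day 60 B (410.3), Adm on day 5 B (13520.5), Adm on day 60 E (3537) and Calcrl on day 20 C (12545, the low one).

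The changes against control differed between times, by the limma test of the difference, adjusted over all genes. The genes were chosen as high on day 5 and day 20, so the differences of day 60 are not independent of that choice. Kcne3 also passed the minimum signal only through those days. Between day 20 and day 5 the difference was -1.21 for Tmem255a and -1.05 for Adm. Between day 60 and day 20 it was -3.73 for Esm1, -3.86 for Kcne3, -2.78 for Tmem255a, -2.01 for Aplnr, -1.42 for Calcrl, -0.75 for Ramp2 and -1.30 for Ramp3. Between day 60 and day 5 it was -3.68 for Esm1, -4.73 for Kcne3, -3.99 for Tmem255a, -1.87 for Aplnr, -1.41 for Adm, -0.996 for Calcrl, -0.98 for Ramp2 and -0.89 for Ramp3.

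The array with conflicting labels is in no comparison, and its signals for all 9 genes lay above every control array. They were 26128 for Esm1, 6846 for Kcne3, 18045 for Tmem255a, 2281 for Apln, 71594 for Aplnr, 8253 for Adm, 15946 for Calcrl, 8078 for Ramp2 and 1184 for Ramp3. Its Vegfa signal was 11111, against 66.5 to 467 on the control arrays and 3927 to 9410 on the day 5 arrays. Its endothelial mean was 12.3, against 10.3 to 10.7 on the control arrays. These values lie outside the control range. Groups were taken from labels and never from values, so it has no group here, and the alternatives that count it as a control should be read beside these values.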

How the results depend on the processing

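Over 1938 changes of single genes under the alternatives, 1805 kept their direction and their side of the threshold or moved by less than the spread, 43 with no test moved by more, 31 calls were lost, 20 were gained and 39 turned sign. Of those 39, 19 came from centring on the pan-endothelial genes, which lowers every gene by 1.77 on day 5 and 1.65 on day 20 against control.

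The count of 2 genes lower on day 20 than on day 5 was 1 with no minimum signal, with the 75th percentile as centre, with pan-endothelial centring, in a fit of only both groups and with a replicate block (Adm then at -0.97, adjusted p = 0.0789), and 0 with the unassigned array as a control. Leaving out 1 array at a time gave 0 to 3. Leaving out day 5 B gave 0. The block changed no other call, and whether the letters pair the samples was not settled.

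With pan-endothelial centring, day 60 against day 20 gave 3 genes higher and 4 lower, and day 60 against day 5 gave 4 higher and 3 lower. On that scaling 95.4% of all genes were called higher in each of these comparisons, with medians of 1.59 and 1.73. The signs that turned were, on day 5 against control, Apln (-1.10), Aplnr (-0.13), Calcrl (-0.42), Ramp2 (-0.56) and Ramp3 (-0.51). On day 20 against control they were Apln (-0.93), Ramp2 (-0.67) and Adm (-0.84), and on day 60 against control Apln (-0.065). Between day 60 and day 20 they were Apln (0.87), Adm (1.20), Calcrl (0.14), Ramp2 (0.81) and Ramp3 (0.25). Between day 60 and day 5 they were Apln (1.03), Adm (0.27), Calcrl (0.68), Ramp2 (0.70) and Ramp3 (0.79).

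With the unassigned array as a control, day 60 against control turned to -0.21 for Kcne3, -0.37 for Tmem255a, -0.0087 for Ramp2 and -0.055 for Apln. The last was also -0.0064 under quantile normalization, -0.095 with array weights, -0.055 with the Actb ratio as a covariate and -0.51 without day 60 A, B and D. When single arrays were left out it ranged between -0.18 and 0.21. In day 20 against day 5, leaving out single arrays gave Esm1 between -0.036 and 0.15 and Apln between -0.048 and 0.16. The second probe set turned Aplnr to -0.48 in day 20 against day 5, and Calcrl to -0.13 there and to -0.15 in day 60 against control. Probe sets with a mean signal under 300 had no test. With 1 or 500 added before the log, the day 5 change of Kcne3 was 6.38 or 3.85. The causes were not tested.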

Other observations

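Cell types that surround vessels had courses of their own beside that of the 9 genes. Of 11 pericyte and smooth muscle genes, 7 rose on day 5 (median log2 change 0.97), where 16.8% of all genes did, and 10 rose and 1 fell on day 20 (median 1.56), where 15.6% rose and 14.5% fell, by limma's test over all genes, and 4 were higher on day 20 than on day 5, where 3.05% of all genes were. Of 6 lymphatic endothelial genes, 2 rose and 1 fell on day 5 (median 0.88), where 16.8% of all genes rose and 17.5% fell. Flt4, which is also on the tip cell list, rose by 2.18 and Lyve1 by 1.70, and Reln fell by 1.41. On day 20, 2 rose (median 0.48), Mmrn1 by 2.48 and Flt4 by 2.02, where 15.6% of all genes did, and Lyve1 was at -0.25. On day 60, 1 was higher than in the controls, Mmrn1 by 1.91 (median of the list 0.82), where 0.368% of all genes were.

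Markers of fat, muscle and skin were counted in the same way, where 17.5% of all genes fell on day 5 and 14.5% on day 20. Of 8 adipocyte genes, 6 fell on day 5 (median -1.70) and 6 on day 20 (median -2.46). On day 60, 2 were still lower than control, where 0.765% of all genes were. Of 10 skeletal muscle genes, 4 fell on day 5 (median -1.28) and 1 on day 20 (median -0.72), a share below that of all genes. Of 9 keratinocyte genes, 3 fell on day 20 (median -1.03), and on day 5 all 9 missed the threshold (median -0.91, limma), 1 of them with an unadjusted p under 0.05. Of 10 fibroblast genes, 4 rose and 4 fell on day 5, and 5 rose and 2 fell on day 20. Of all genes, 16.8% rose on day 5 and 15.6% on day 20. The part of these shifts in the tissue's makeup in the changes of the 9 genes was not tested.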
